A study of Mus musculus with 20 samples.

Results

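Pecam1, Cdh5, Kdr, Flt1, Tek, Tie1, Emcn, Plvap, Eng and Vwf are 10 genes transcribed mainly in the endothelial cells that line blood vessels. They were taken by name from the 24062 genes of the count files and followed through 20 RNA libraries of inguinal fat and pituitary. All 10 passed the filter on low counts in every fit.

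Endothelial cells are held together by VE-cadherin (encoded by Cdh5) and PECAM-1. They grow and survive on VEGF, which signals through VEGFR2 (Kdr) and is bound by VEGFR1 (Flt1), and their quiescence depends on angiopoietins acting on the TIE receptors (Tek, Tie1). Vessels differ between organs. The anterior pituitary is supplied by fenestrated capillaries, whose pores carry a diaphragm made of the protein PV-1 (Plvap), and hormones enter the blood through them. White fat has a dense network of mostly continuous capillaries that delivers lipid to adipocytes.

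The mice were C57BL/6N males fed chow. The groups were iWAT (inguinal white adipose tissue, the subcutaneous depot of the groin) labelled Klf14 KO and labelled WT, and pituitary labelled Klf14 KO and labelled WT, with 5 poly(A) RNA libraries in each. Klf14 encodes a zinc-finger transcription factor. The titles carry a number, read here as that of the mouse and used to name the libraries: 31, 32, 35, 50 and 66 for KO and 33, 34, 48, 49 and 56 for WT, always in that order. KO mice 31, 32, 35 and 66 and WT mice 33 and 34 were 21 weeks old, mice 48, 49 and 50 were 19 weeks old and mouse 56 was 18 weeks old. Genotype and age therefore move partly together. The 5 libraries of a group carry 5 different numbers. The labels do not say in words that a number stands for an animal, or that it is the same animal in both tissues, so the p-values rest on how far libraries of a group differ.

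Total counts ran from 14.8 to 18.7 M (mega-counts) in iWAT and from 13.6 to 17.6 M in pituitary. Levels are RPKM, the count per kilobase of counted exon per mega-count of a library size scaled by TMM (edgeR's trimmed mean of M-values) over all 20 libraries. The tissue labels were checked with marker genes. In iWAT 6 adipocyte genes summed to between 3597 and 16930 counts per mega-count (CPM), against 23.7 to 31.3 CPM in pituitary, where Lep was at 0 in all libraries. Conversely, 8 anterior pituitary genes summed to at most 2.11 CPM in 9 of the iWAT libraries, to 124 CPM in iWAT library 32 (labelled KO), and to at least 97660 CPM in pituitary. Library 50 of iWAT (labelled KO) stood apart from the rest for the endothelial genes, and some of the results that move without it are given both ways. The genotype labels could not be checked. The counted part of Klf14 is its whole single exon, and Klf14 was higher, not lower, in pituitary labelled KO (28.9 to 36.1 CPM) than in pituitary labelled WT (13.3 to 17.8 CPM). The log2 fold change was 1.004 (SE 0.086, adjusted p = 7.64e-05, edgeR).

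The genes lie on 7 chromosomes of mm10, and their counted exons were taken from a UCSC annotation. Pecam1 lies at chr11:106654218-106715281 on the minus strand with 15 exons and 3305 counted bases. Cdh5 lies at chr8:104101625-104144502 on the plus strand with 12 exons and 3986 bases, and Plvap at chr8:71497753-71511769 on the minus strand with 6 exons and 2016 bases. The VEGF receptor genes share chromosome 5, with Kdr at chr5:75933270-75978428 (minus strand, 30 exons, 5451 bases) and Flt1 at chr5:147562196-147725988 (minus strand, 30 exons, 6280 bases). The TIE receptor genes share chromosome 4, with Tek at chr4:94739289-94874976 (plus strand, 23 exons, 4702 bases) and Tie1 at chr4:118471191-118489849 (minus strand, 23 exons, 3879 bases). Eng lies at chr2:32646595-32682669 (plus strand, 14 exons, 3572 bases), Emcn at chr3:137341078-137431069 (plus strand, 12 exons, 1461 bases) and Vwf at chr6:125552948-125686679 (plus strand, 52 exons, 8834 bases). None shares exon bases with another gene except Eng, which overlaps Fpgs on the opposite strand over 61 bases. Counting used no strand option and counted a read for each gene it overlapped, so reads in those bases count for both genes.

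Start-site sequences from RefSeq (GRCm38.p6, the assembly of mm10) were available for 6 of the 10 genes: Kdr, Flt1, Tek, Tie1, Emcn and Eng. Each runs from 250 bases before to 50 bases after the gene's start. The 2 receptor pairs are printed because their ratios are compared further on. Capitals mark AGGAAG or its reverse complement CTTCCT, one of the sequences bound by ETS factors, the family of Erg, Fli1 and Ets1 that is active in endothelium. Other ETS sequences were not searched, so a window without capitals can still hold one.
Kdr: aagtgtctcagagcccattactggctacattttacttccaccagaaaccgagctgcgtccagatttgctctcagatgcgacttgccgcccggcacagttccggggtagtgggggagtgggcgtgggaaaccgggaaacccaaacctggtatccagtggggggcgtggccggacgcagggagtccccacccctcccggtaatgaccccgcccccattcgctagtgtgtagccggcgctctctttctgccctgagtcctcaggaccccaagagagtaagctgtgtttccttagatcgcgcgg
Flt1: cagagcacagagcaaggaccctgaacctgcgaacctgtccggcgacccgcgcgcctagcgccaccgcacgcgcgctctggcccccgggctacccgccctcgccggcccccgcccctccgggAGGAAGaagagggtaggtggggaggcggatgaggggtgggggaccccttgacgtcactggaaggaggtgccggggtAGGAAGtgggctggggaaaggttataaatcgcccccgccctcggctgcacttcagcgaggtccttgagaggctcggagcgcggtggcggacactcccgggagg
Tek: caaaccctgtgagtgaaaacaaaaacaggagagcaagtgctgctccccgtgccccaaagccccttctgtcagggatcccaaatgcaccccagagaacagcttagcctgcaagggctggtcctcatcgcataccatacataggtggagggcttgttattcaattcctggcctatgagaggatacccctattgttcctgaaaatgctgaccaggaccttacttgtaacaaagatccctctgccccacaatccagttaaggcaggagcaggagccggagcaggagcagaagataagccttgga
Tie1: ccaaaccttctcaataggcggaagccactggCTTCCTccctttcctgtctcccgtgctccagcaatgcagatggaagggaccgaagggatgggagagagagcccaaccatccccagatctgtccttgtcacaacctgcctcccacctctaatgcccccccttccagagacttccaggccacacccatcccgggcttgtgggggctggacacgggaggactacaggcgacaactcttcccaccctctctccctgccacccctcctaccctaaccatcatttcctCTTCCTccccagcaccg
Kdr and Tek had no match to AGGAAG on either strand, and Flt1, Tie1, Emcn and Eng had 2 each. That is 4 of 6 sequences, while 35.4% of all 32851 start-site windows held the motif. CACCC, the letters of the CACCC box read by KLF factors, stood on either strand in 5 of 6 windows, against 57.5% of all windows. GGGCGG, the GC box, stood in 2 of 6 (Kdr and Flt1), against 35.7% of all, and TATAAA stood in 1 of 6 (Flt1), against 13.6%. None of these motifs contains another. A match is a description of the letters only.

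In iWAT, 8 of the 10 genes were higher than in pituitary in both genotypes, by 1.69-fold (Kdr) to 20.6-fold (Vwf) in WT and by 1.88-fold to 23.6-fold for the same genes in mice labelled KO. Plvap, the gene of the fenestral diaphragm, and Emcn, which encodes the sialomucin endomucin of capillary and venous endothelium, did not pass the test in either genotype. For all 8 the libraries of the tissues did not overlap, and for Plvap and Emcn they did. The tissues differ widely, so the background is high: 40.4% of 17731 genes tested were higher in iWAT in mice labelled KO and 39.5% in WT (edgeR quasi-likelihood test, Benjamini-Hochberg adjusted p under 0.05). Groups were without overlap, iWAT above, for 30.4% of genes in mice labelled KO and 33.9% in WT. The median log2 fold change of the 10 genes was 1.74 in mice labelled KO and 1.65 in WT, against 0.052 and 0.025 over all genes tested. These are bulk tissues, in which fewer endothelial cells and less RNA per cell cannot be told apart.

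**Figure D1:**
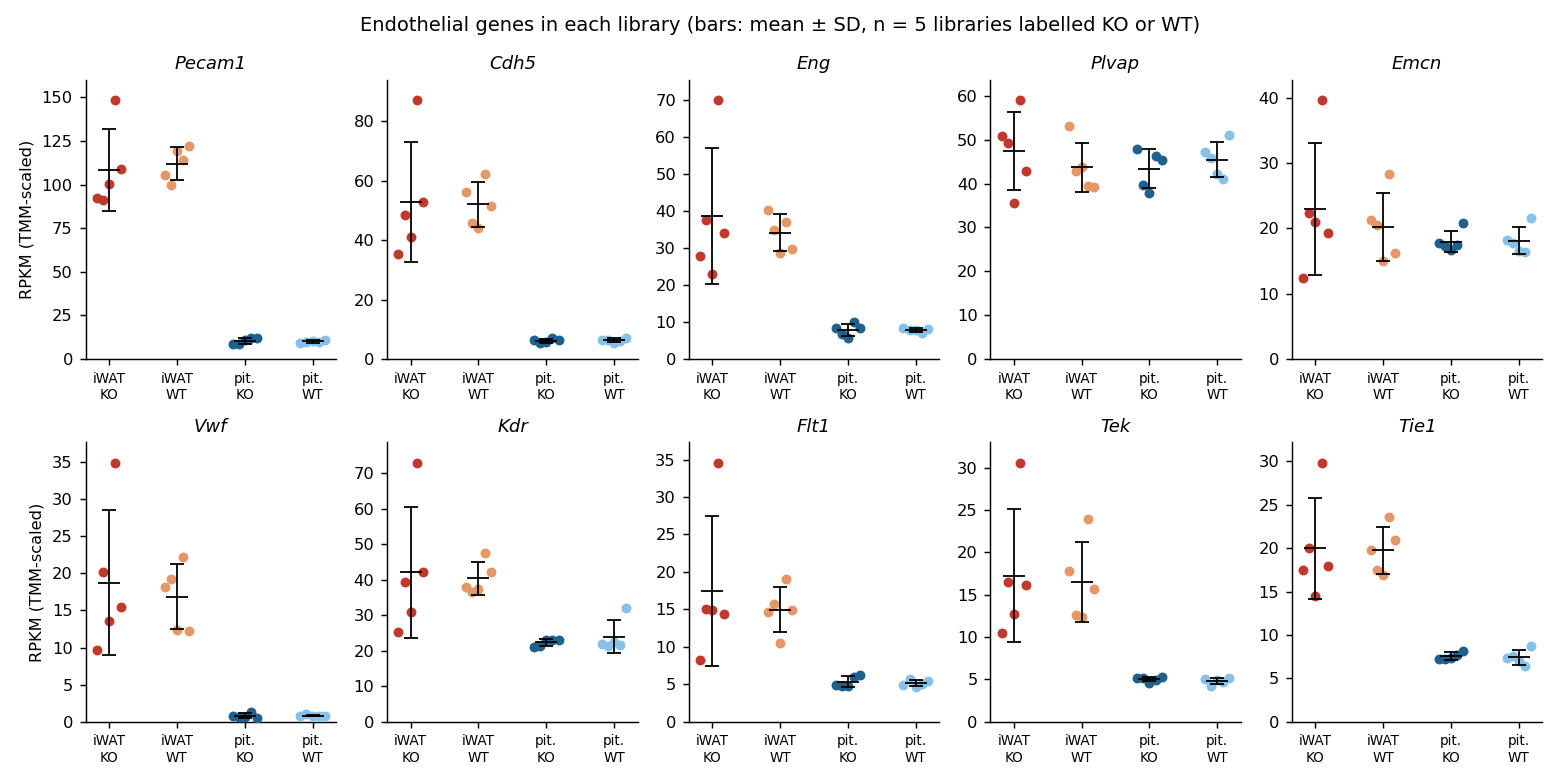
RPKM of each gene (linear axis from 0) in iWAT and pituitary libraries labelled KO and WT; each point is 1 library and the bars are mean ± SD, n = 5. Within a genotype the tissues are separate in every panel except Plvap and Emcn, and the highest iWAT point in every panel is KO library 50.

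Pecam1 encodes an adhesion receptor of endothelial junctions that platelets and leukocytes also carry. In iWAT it stood at 92.5, 91.2, 100.4, 148 and 109 RPKM in libraries labelled KO and at 105, 99.9, 119, 114 and 122 RPKM in WT. In pituitary it stood at 8.81, 8.44, 10.7, 11.8 and 12.1 RPKM in libraries labelled KO and at 9.42, 9.95, 10.4, 9.75 and 11.2 RPKM in WT. The lowest iWAT library was far above the highest pituitary library. The fold was 10.4 in mice labelled KO (log2 3.38, SE 0.137, adjusted p = 6.31e-14) and 11.0 in WT (log2 3.46, SE 0.137, adjusted p = 4.61e-14; edgeR). Leukocyte genes moved the same way: all 9 macrophage genes and all 9 lymph node genes on fixed lists were higher in iWAT in both genotypes. Over all genes the share was 40.4% in mice labelled KO and 39.5% in WT. Macrophage genes summed to 948 to 2056 CPM in iWAT and 76.5 to 227 CPM in pituitary, and the part of these cells in the Pecam1 difference was not tested.

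Cdh5, the gene of VE-cadherin, is the more endothelium-restricted of the junction genes. In iWAT it stood at 35.3, 48.4, 41.1, 87.0 and 52.8 RPKM in libraries labelled KO and at 56.3, 45.6, 44.1, 62.2 and 51.5 RPKM in WT. Pituitary levels were 6.32, 5.30, 5.70, 7.07 and 6.25 RPKM in libraries labelled KO and 6.47, 6.45, 5.48, 6.14 and 7.18 RPKM in WT. The tissues were again separate, with folds of 8.63 in mice labelled KO (log2 3.11, SE 0.193, adjusted p = 3.25e-11) and 8.19 in WT (log2 3.03, SE 0.192, adjusted p = 4.33e-11; edgeR).

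The receptors of VEGF differed less between tissues. Kdr, the main signalling receptor, stood in iWAT at 25.4, 39.4, 30.8, 72.8 and 42.1 RPKM in libraries labelled KO and at 38.0, 36.7, 37.3, 47.5 and 42.1 RPKM in WT. In pituitary Kdr stood at 21.1, 21.4, 23.0, 23.0 and 23.1 RPKM in libraries labelled KO and at 21.9, 21.5, 22.5, 21.5 and 32.2 RPKM in WT. Within each genotype the tissues did not overlap, but the gap was small in mice labelled KO, where iWAT library 31 was the nearest. WT pituitary library 56 lay above iWAT libraries 31 and 35, which carry the other genotype label. Kdr had the smallest fold of the 8 genes that passed, 1.88 in mice labelled KO (95% interval 1.41 to 2.53, adjusted p = 0.000412) and 1.69 in WT (1.26 to 2.26, adjusted p = 0.00216; edgeR). The log2 fold change in mice labelled KO was 0.91, and 0.59 without mouse 50 (adjusted p = 0.00232, edgeR).

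Flt1 encodes VEGFR1, which binds VEGF tightly and has a soluble form that these gene counts do not separate. It stood in iWAT at 8.23, 15.1, 14.97, 34.5 and 14.4 RPKM in libraries labelled KO and at 14.6, 15.8, 10.5, 19.0 and 14.9 RPKM in WT. Pituitary levels were 4.84, 4.83, 4.80, 5.91 and 6.30 RPKM in libraries labelled KO and 4.91, 5.68, 4.69, 5.02 and 5.40 RPKM in WT. Flt1 was 3.27-fold higher in iWAT in mice labelled KO (log2 1.71, SE 0.260, adjusted p = 7.36e-06) and 2.91-fold in WT (log2 1.54, SE 0.259, adjusted p = 2.39e-05; edgeR). Its lowest iWAT library, KO library 31, was still above every pituitary library.

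Tek encodes TIE2, the receptor that binds angiopoietins. Its iWAT levels were 10.4, 16.5, 12.7, 30.5 and 16.1 RPKM in libraries labelled KO and 17.7, 12.6, 12.4, 23.9 and 15.7 RPKM in WT. In pituitary it stood at 5.13, 5.13, 4.63, 4.95 and 5.33 RPKM in libraries labelled KO and at 5.10, 4.28, 4.91, 4.68 and 5.20 RPKM in WT, a narrow range. The fold was 3.42 in mice labelled KO (adjusted p = 8.61e-07) and 3.40 in WT (adjusted p = 9.14e-07; edgeR).

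Tie1, an orphan receptor that modulates TIE2 signalling, stood in iWAT at 17.5, 20.1, 14.5, 29.8 and 18.0 RPKM in libraries labelled KO and at 19.8, 17.5, 16.9, 23.6 and 21.0 RPKM in WT. Pituitary Tie1 was 7.18, 7.22, 7.40, 7.75 and 8.21 RPKM in libraries labelled KO and 7.33, 7.57, 7.04, 6.47 and 8.75 RPKM in WT. Tie1 was thus 2.65-fold higher in iWAT in mice labelled KO (adjusted p = 6.23e-08) and 2.66-fold in WT (adjusted p = 5.76e-08; edgeR), with no overlap.

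Eng encodes endoglin, a co-receptor for TGF-beta and BMP ligands on endothelium. In iWAT it stood at 27.9, 37.6, 23.1, 69.8 and 34.1 RPKM in libraries labelled KO and at 40.3, 34.9, 28.5, 36.9 and 29.7 RPKM in WT. In pituitary it stood at 8.36, 6.71, 5.74, 10.1 and 8.32 RPKM in libraries labelled KO and at 8.30, 7.92, 7.75, 7.06 and 7.97 RPKM in WT. The tissues were separate, by 4.90-fold in mice labelled KO (log2 2.29, SE 0.232, adjusted p = 3.38e-08) and 4.36-fold in WT (log2 2.13, SE 0.231, adjusted p = 8.79e-08; edgeR).

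Plvap behaved unlike the genes above. In iWAT it stood at 50.8, 49.1, 35.5, 59.0 and 42.8 RPKM in libraries labelled KO and at 53.1, 42.9, 43.8, 39.4 and 39.3 RPKM in WT. In pituitary it stood at 47.8, 39.7, 37.8, 46.3 and 45.4 RPKM in libraries labelled KO and at 47.3, 45.9, 42.2, 41.0 and 51.0 RPKM in WT. The tissues overlapped almost fully. The fold, iWAT over pituitary, was 1.09 in mice labelled KO (95% interval 0.921 to 1.30, adjusted p = 0.324) and 0.961 in WT (0.810 to 1.14, adjusted p = 0.663; edgeR). Both intervals lie far from the folds of Pecam1 and Cdh5. 

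Emcn stood in iWAT at 12.4, 22.3, 21.1, 39.6 and 19.3 RPKM in libraries labelled KO and at 21.3, 20.5, 15.02, 28.3 and 16.2 RPKM in WT. Pituitary levels were 17.8, 17.4, 16.6, 17.4 and 20.8 RPKM in libraries labelled KO and 18.2, 17.7, 16.6, 16.5 and 21.6 RPKM in WT, within the range of iWAT. The fold was 1.27 in mice labelled KO (95% interval 0.924 to 1.75, adjusted p = 0.156) and 1.12 in WT (0.812 to 1.54, adjusted p = 0.512; edgeR). In mice labelled KO the call rested on single libraries. Without mouse 31 the log2 fold change was 0.48 (adjusted p = 0.0492, edgeR), and without mouse 50 it was 0.0022 (adjusted p = 0.992). In WT the log2 fold change was -0.053 without mouse 49.

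Vwf encodes von Willebrand factor, stored in Weibel-Palade bodies of endothelium and also made by megakaryocytes. It stood in iWAT at 9.71, 20.1, 13.6, 34.8 and 15.4 RPKM in libraries labelled KO and at 18.2, 19.2, 12.4, 22.2 and 12.2 RPKM in WT. In pituitary it was the lowest of the 10 genes, at 0.729, 0.626, 0.701, 1.37 and 0.557 RPKM in libraries labelled KO and 0.770, 1.02, 0.795, 0.755 and 0.756 RPKM in WT, from 79 to 168 counts per library. The tissue fold was 23.6 in mice labelled KO (log2 4.56, SE 0.334, adjusted p = 3.59e-10) and 20.6 in WT (log2 4.36, SE 0.331, adjusted p = 5.89e-10; edgeR), the largest among the 10. Platelet genes were also higher in iWAT, but their median log2 fold change was smaller, 1.35 in mice labelled KO and 1.3 in WT. Among them Pf4 reached 4.60 in WT. A list of 6 summed to 26.8 to 54.7 CPM in iWAT and 9.94 to 13.5 CPM in pituitary. Of its 4 tested genes 4 were higher in iWAT in mice labelled KO and 3 in WT, beside 40.4% and 39.5% of all genes. The part of platelets in the Vwf difference was not tested.

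**Figure D2:**
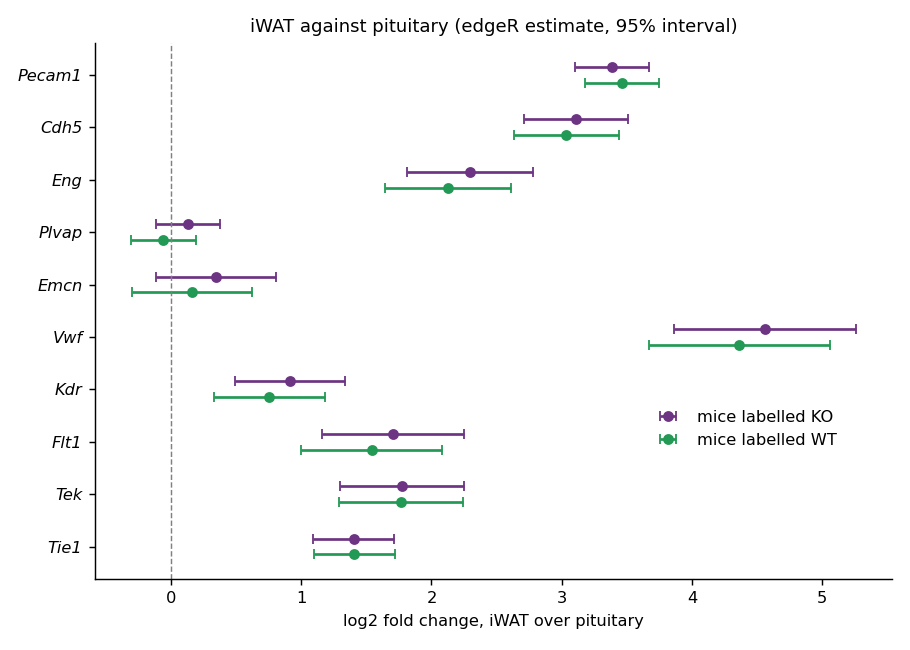
Log2 fold change of each gene, iWAT over pituitary, in mice labelled KO and WT; points are edgeR estimates, lines are 95% intervals and the dashed line is no difference. Intervals of Plvap and Emcn cross 0, and Vwf, Pecam1 and Cdh5 lie above 2.6.

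The order of levels within a tissue was therefore different. In WT iWAT Pecam1 came first at 112 ± 9.28 RPKM (SD, n = 5), above Cdh5 at 52.0 ± 7.51 RPKM in every library and without overlap. Cdh5, Plvap, Kdr and Eng followed with overlapping ranges between neighbours, and Emcn, Tie1, Vwf, Tek and Flt1 formed a lower group from 20.3 to 14.96 RPKM, in which each neighbour overlapped the next. In WT pituitary Plvap came first at 45.5 ± 4.04 RPKM, above Kdr at 23.9 ± 4.63 RPKM without overlap. Emcn came next at 18.1 ± 2.08 RPKM and overlapped Kdr. Pecam1 followed at 10.1 ± 0.679 RPKM, apart from both its neighbours. Eng, Tie1, Cdh5, Flt1 and Tek descended from 7.80 to 4.83 RPKM with each neighbour overlapping the next, and Vwf stood apart below them. The libraries labelled KO had the same leading gene in each tissue, Pecam1 at 108 ± 23.4 RPKM in iWAT and Plvap at 43.4 ± 4.38 RPKM in pituitary.

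As shares of the summed RPKM of the 10 genes, Plvap made up 12.8% of the sum in iWAT and 34.2% in pituitary in mice labelled KO, and 11.9% in iWAT and 35.0% in pituitary in WT. Pecam1 took 28.9% in iWAT and 8.17% in pituitary in mice labelled KO, and 30.4% and 7.83% in the same tissues in WT. Emcn took 5.42% in WT iWAT and 13.9% in WT pituitary, and Kdr 10.9% and 18.3%. The shares of Flt1, Tek and Tie1 were within 1 percentage point between the tissues in WT: 4.02% in iWAT and 3.97% in pituitary for Flt1, 4.38% and 3.73% for Tek, and 5.32% and 5.71% for Tie1.

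**Figure D3:**
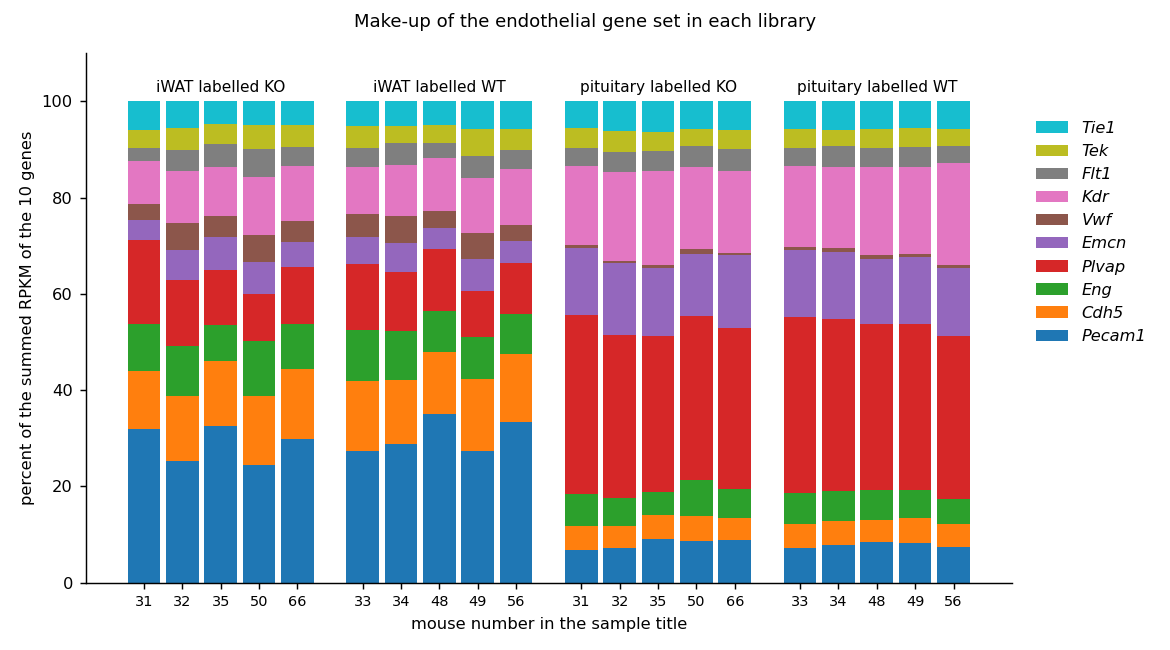
Percent of the summed RPKM of the 10 genes taken by each gene, 1 bar per library, grouped by tissue and genotype label and marked with the mouse number. The Pecam1 segment is the widest in every iWAT bar and the Plvap segment the widest in every pituitary bar.

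Ratios of paired genes within a library do not depend on scaling between libraries. Over 4 ratios and 4 comparisons, tested by exact two-sided permutation of 5 against 5 libraries with adjustment over all 16, 7 tissue differences passed. This test cannot give a p below 0.00794. Plvap over Pecam1, per length, was 0.549, 0.539, 0.353, 0.398 and 0.393 in iWAT and 5.42, 4.70, 3.52, 3.94 and 3.74 in pituitary of mice labelled KO. In WT it was 0.505, 0.430, 0.367, 0.346 and 0.322 in iWAT and 5.02, 4.61, 4.05, 4.21 and 4.57 in pituitary. Every iWAT library was below 1 and every pituitary library above 3, with log2 differences of -3.26 in mice labelled KO and -3.53 in WT (exact permutation, adjusted p = 0.0317 in each).

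Flt1 over Kdr averaged 0.402 in iWAT and 0.239 in pituitary of mice labelled KO, and 0.370 in iWAT and 0.220 in pituitary of WT mice. The ranges did not overlap, with log2 differences of 0.74 in mice labelled KO and 0.75 in WT (exact permutation, adjusted p = 0.0317 in each). Tek over Tie1 averaged 0.843 in iWAT and 0.668 in pituitary of mice labelled KO (log2 difference 0.32, adjusted p = 0.111, exact permutation), which did not pass. In WT it averaged 0.822 in iWAT and 0.655 in pituitary and passed (log2 difference 0.32, adjusted p = 0.0363, exact permutation). Vwf over Pecam1 averaged 0.168 in iWAT and 0.0769 in pituitary of mice labelled KO, and 0.153 and 0.0811 in WT (log2 differences 1.12 and 0.87, adjusted p = 0.0363 in each, exact permutation). For Tek over Tie1 and Vwf over Pecam1 the ranges of the tissues overlapped in both genotypes. Leaving out any mouse number raised the adjusted p of all 7 to 0.0571 or more, because fewer assignments are then possible, while every log2 difference kept its sign.

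Genotype made no difference that passed the test. In iWAT 0 of the 10 genes passed between libraries labelled KO and WT, beside 0% of the 16105 genes tested. Each of the 10 had adjusted p = 1 (edgeR). At an unadjusted p under 0.05 the counts were 0 of 10 and 89 genes (0.553%), a smaller share of genes than the threshold of 0.05. On simulated data this iWAT test called only 7.46% of 1.5-fold changes, so 0 of 10 does not exclude small ones. In pituitary 0 of 10 passed, the lowest adjusted p being 0.793, beside 0.549% of the 16389 genes tested (90 genes), and again 0 of 10 had an unadjusted p under 0.05, against 1792 genes (10.9%). That count of 90 was 55 without mouse 32, 50 without mouse 49 and 51 without mouse 56, with 0 of the 10 genes in each. DESeq2 and limma voom also called 0 of 10 in either tissue. No gene had groups that did not overlap, beside 0.0807% of genes tested in iWAT and 2.85% in pituitary.

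In pituitary the estimates were narrow. Log2 fold changes, labelled KO over WT, lay between -0.098 (Kdr) and 0.059 (Tek). Plvap was 43.4 ± 4.38 RPKM in libraries labelled KO and 45.5 ± 4.04 RPKM in WT (SD, n = 5 each), a fold of 0.955 with a 95% interval of 0.853 to 1.07. The widest interval was that of Vwf, from 0.700 to 1.34. In iWAT log2 fold changes lay between -0.078 (Pecam1) and 0.19 (Flt1), and intervals were wider. Flt1 averaged 17.4 ± 9.97 RPKM in libraries labelled KO and 14.96 ± 3.03 RPKM in WT, a fold of 1.14 with a 95% interval of 0.691 to 1.88. Plvap averaged 47.4 ± 8.83 RPKM in libraries labelled KO and 43.7 ± 5.66 RPKM in WT, a fold of 1.06 with a 95% interval of 0.868 to 1.30.

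**Figure D4:**
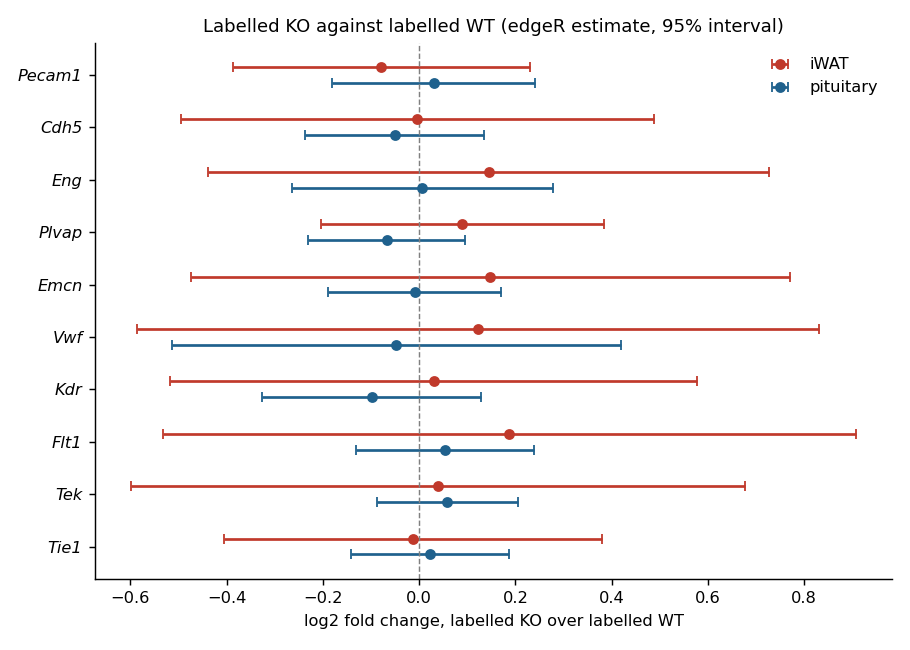
Log2 fold change of each gene, labelled KO over labelled WT, in iWAT and pituitary; points are edgeR estimates and lines 95% intervals. Every interval crosses 0, and those of iWAT are wider than those of pituitary for each gene.

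The genotype effect was also compared between tissues, as the iWAT effect minus the pituitary effect. Values ran from -0.081 (Pecam1) to 0.20 (Vwf) on the log2 scale, and 0 of 10 genes passed (adjusted p = 1 for each, edgeR), beside 0% of 17731 genes; 0 of 10 and 427 genes (2.41%) had an unadjusted p under 0.05. With age as a covariate 0 of 10 passed in either tissue. Mice of 21 weeks only also gave 0 of 10, but they were 4 labelled KO against 2 WT. So small a set can call few changes, and its 0 adds little.

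iWAT library 50, labelled KO, was the highest of all 10 iWAT libraries for each of the 10 genes, and their summed RPKM was 606 there, against 290 to 364 in the other KO libraries and 340 to 417 in WT. The spread between libraries labelled KO was accordingly wide, with coefficients of variation of 18.6% (Plvap) to 57.1% (Flt1), against 8.29% (Pecam1) to 28.7% (Tek) in WT. Without mouse 50 the log2 fold changes, labelled KO over WT, became -0.20 for Pecam1, -0.24 for Cdh5, -0.24 for Kdr, -0.20 for Flt1, -0.25 for Tek, -0.19 for Tie1, -0.12 for Emcn, -0.16 for Eng and -0.21 for Vwf, and 0.011 for Plvap, against 0.090 with it. None passed (adjusted p = 1 for each, edgeR), but 6 of the 7 positive estimates turned negative.

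Other cell types moved in the same library. In iWAT the 9 lymph node genes summed to 1228, 521, 840.2, 17.0 and 846 CPM in libraries labelled KO and to 683, 650.4, 1124, 263 and 994 CPM in WT. The 6 adipocyte genes summed to 5741, 9574, 7862, 16930.0 and 10730.0 CPM in libraries labelled KO and to 12640.0, 9077, 3597, 10910.0 and 8384 CPM in WT. Library 50 was the lowest for the lymph node list and the highest for the adipocyte list and for the 5 blood genes, which summed to 7766 CPM there and to at most 4005 CPM elsewhere in iWAT. Mural genes, those of pericytes and smooth muscle, were highest there too, at 1244 CPM, but 1219 CPM in WT library 33 was close. Endothelial lists did not all move alike. Library 50 was also the highest for the 26 further endothelial genes, at 3739 CPM against 1723 to 2957 CPM in the other iWAT libraries, and for the arterial and venous lists. It was the lowest for the endothelial transcription factors, at 783 CPM against 824 to 1366 CPM, and for the lymphatic genes, at 95.4 CPM against 218 to 444 CPM. Lymphoid cells also express some of these factors, such as Ets1. The part of these cell types in the endothelial levels of library 50, and in its factor and lymphatic sums, was not tested.

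**Figure D5:**
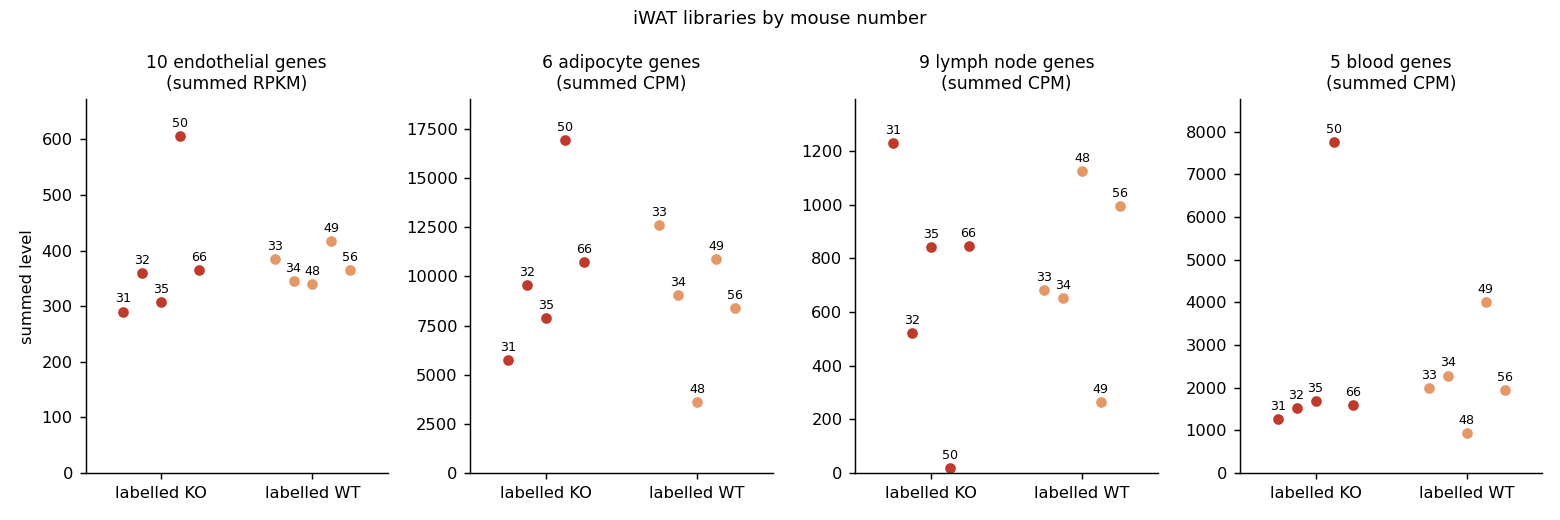
Summed level in each iWAT library, marked with the mouse number, of the 10 endothelial genes (RPKM) and of adipocyte, lymph node and blood genes (CPM), for libraries labelled KO and WT, all on linear axes from 0. Library 50 is highest for the endothelial, adipocyte and blood genes and lowest, at 17.0 CPM, for the lymph node genes.

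Within a tissue the 10 genes varied together to different degrees, described here as correlations of log2 CPM after the mean of each genotype was subtracted, without a test. Libraries of a tissue share scaling and cell mix, and a single library can set such values. In iWAT the 45 pairs had a median r of 0.84 (0.17 to 0.97) and a median rho of 0.71 over 10 libraries, and a median r of 0.58 without library 50. Cdh5 had the highest mean r with the other genes, 0.84, and 0.64 without library 50. Pecam1 and Plvap stood apart. The mean r of Pecam1 was 0.60, and 0.0077 without library 50. That of Plvap was 0.36, and -0.10 without it. In pituitary the median r was 0.49 (-0.39 to 0.88), highest for Cdh5 at a mean of 0.56 and lowest for Vwf at 0.13. Without library 50 Emcn had the highest mean, 0.58, Cdh5 had 0.50 and Vwf -0.26.

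Outside the 10 genes, those with the highest mean r with them over the 10 iWAT libraries included Poldip2 (0.865), Vwa8, Mmrn2 (0.862), Mrpl17, Hoxa7, Gphn, Eif3l, Maff and Psma7 (0.856), of 16095 genes ranked. Of the genes named here for iWAT, only Mmrn2, which encodes an endothelial matrix protein, was on an endothelial list. In pituitary they included Kif22, Ugt1a5, A930011G23Rik, Ushbp1, Gas6, Ugt1a2, Ugt1a10 and Ugt1a1 (0.652), of 16379. The Ugt1a genes share exons, so they count as one signal. The 26 further endothelial genes had a median mean r of 0.62 (-0.55 to 0.86) in iWAT and 0.30 (-0.59 to 0.58) in pituitary. Over all other genes ranked the median was 0.046 in iWAT and -0.0074 in pituitary. The rankings and these medians used all 10 libraries of a tissue, including the iWAT library that stood apart. No value without that library is given for them.

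Of those 26 genes, 24 were higher in iWAT and 2 lower in both genotypes. Over all genes tested 40.4% were higher and 37.7% lower in iWAT in mice labelled KO, and 39.5% and 38.6% in WT. The 26 had a median log2 fold change of 2.09 in mice labelled KO and 2.06 in WT. In WT the largest was Cldn5, a tight-junction gene, at 61.7 ± 19.9 RPKM in iWAT and 1.03 ± 0.367 RPKM in pituitary (log2 5.88, SE 0.372, adjusted p = 4.13e-11, edgeR). Gpihbp1, which anchors lipoprotein lipase on capillaries of fat, stood at 98.9 ± 27.4 RPKM in iWAT and 1.87 ± 0.583 RPKM in pituitary (SD, n = 5 each). Esm1, a marker of endothelial tip cells, went the other way, at 0.461 ± 0.233 RPKM in iWAT and 18.0 ± 4.96 RPKM in pituitary (log2 -5.28, SE 0.284, adjusted p = 4.04e-12, edgeR). Apln, the ligand of the apelin receptor, was the other gene lower in iWAT (log2 -2.90); it was named because the count was small.

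Of 11 tested VEGF, angiopoietin and TGF-beta family ligands, 3 were higher and 3 lower in iWAT in mice labelled KO, and 4 and 3 in WT. Those shares are near or below the 39.5% higher and 38.6% lower over all genes in WT. In WT, Vegfa stood at 58.1 ± 20.2 RPKM in iWAT and 11.0 ± 1.21 RPKM in pituitary (log2 2.402, adjusted p = 9.09e-07, edgeR). Vegfb, a ligand of VEGFR1, stood at 17.5 ± 3.10 RPKM in iWAT and 4.46 ± 0.411 RPKM in pituitary. Tgfb1, a ligand bound with the help of endoglin, had the largest fold (log2 4.85, SE 0.362). The part of leukocytes in it, whose genes were also higher in iWAT, was not tested. Pituitary had more Angpt1, the agonist of TIE2, at 5.27 ± 2.56 RPKM in iWAT and 29.5 ± 2.62 RPKM in pituitary (log2 -2.49, adjusted p = 8.23e-08, edgeR). Vegfc, a growth factor of lymphatic vessels that can also bind VEGFR2, followed it at 2.58 ± 0.433 RPKM in iWAT and 11.4 ± 0.798 RPKM in pituitary (log2 -2.14). 

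Of 13 co-receptors and endoglin partners, 9 were higher in iWAT and 2 lower in each genotype, beside 39.5% and 38.6% of all genes in WT. In WT the leading folds were those of Acvrl1, the ALK1 receptor that works with endoglin (log2 2.54), Id1, a BMP target (log2 2.48), and Tgfbr2 (log2 2.24). Tgfbr2 was also the highest of the list in iWAT at 72.6 ± 9.97 RPKM, followed by Id3 and Nrp1, a VEGF co-receptor, at 55.0 ± 17.6 RPKM. In pituitary Tgfbr1 led at 21.7 ± 1.39 RPKM, before Smad5 and Id3.

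Endothelial transcription factors were higher in iWAT for 12 of 16 tested in each genotype, and lower for 4 in mice labelled KO and 3 in WT, beside the same shares of all genes. In WT, Hhex (log2 4.80), Sox17 (log2 4.27) and Fli1 (log2 4.23) had the largest folds. Ets1 was the most abundant in iWAT at 117 ± 38.8 RPKM, against 11.7 ± 0.432 RPKM in pituitary, ahead of Fli1 and the flow-responsive Klf2. Lymphoid cells also express Ets1, Fli1 and Hhex, and lymph node genes summed to 17.0 to 1228 CPM in iWAT and 21.3 to 31.5 CPM in pituitary; their part was not tested. In pituitary Ets2 led at 22.0 ± 1.88 RPKM, before Ets1 and Lmo2.

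Counts on the vessel-type lists stand beside 40.4% of all genes higher and 37.7% lower in mice labelled KO and 39.5% and 38.6% in WT. Venous genes were higher in iWAT for 5 of 5 in each genotype, led in WT by Ackr1 (log2 6.36), Selp (log2 6.14) and Ephb4 (log2 1.75). Arterial genes were higher for 6 and lower for 2 of 8 in each genotype, led in WT by Gja5 (log2 4.81), Sox17 and Bmx (log2 3.26). Of 7 lymphatic genes 4 were higher and 1 lower in each genotype. Ccl21a (log2 7.45) and Lyve1 (log2 5.99) led in WT, and Prox1, which many other cells also express, was lower (log2 -2.03). Of 7 genes of barrier endothelium, as in brain, 4 were higher and 1 lower in mice labelled KO and 3 and 1 in WT, where the higher share is near that of all genes. Mural genes were higher for 10 of 10 in mice labelled KO and 9 of 10 in WT, led in WT by Acta2 (log2 4.30), Myh11 (log2 3.66) and Cspg4 (log2 3.44). None of the genes on these endothelial, ligand, receptor, factor and mural lists passed between libraries labelled KO and WT in either tissue.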

How the data were processed

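Counts are whole numbers of reads per gene, deposited without normalization. Per the file headers, the authors counted primary alignments over exons of a UCSC mm10 annotation with featureCounts, without a strand option, and counted a read that overlapped several genes for each of them. The submitters' processing notes name STAR 2.4.0, featureCounts 1.4.4, mm10 and GRCm38. Reads were 100 nt, single-end, per the labels. Library pairs within groups all differed beyond sampling noise (smallest reduced chi-square 4.70, 40 pairs), so none was treated as a library deposited again.

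Tests used edgeR 4.0.16 in R 4.3.3 (filterByExpr, TMM, robust quasi-likelihood fit, Benjamini-Hochberg over all genes tested, threshold 0.05) and were tested on simulated data. There the iWAT genotype test called 7.46% of 1.5-fold and 46.3% of 2-fold changes, so it misses most small changes. The pituitary genotype test called 65.7% and 92.5%. Tissue contrasts and effect differences came from 1 fit of 20 libraries; genotype was fitted in each tissue alone. Alternatives were RLE scaling, other filters, DESeq2 1.42.0, limma 3.58.1 (voom), age, a replicate block and leaving out each mouse. Log2 CPM for correlations used a prior count of 2. Named genes were the 10, Klf14, the 3 largest tissue folds in WT per list described, the 3 most abundant ligands, co-receptors and factors per tissue, and the 10 best correlated genes. The 10 genes and all lists were chosen with earlier results of these data known. Some genes that the rule for named genes would list are not reported here.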

Additional observations from a re-analysis of the deposited data

Results flagged for a closer look

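Single libraries stood apart in 6 of 60 groups of 5 checked, where chance flags about 1 in 20 independent groups; these groups share libraries and overlap, so that rate need not hold. In WT pituitary, library 56 had 32.2 RPKM of Kdr, against 21.5 to 22.5 RPKM in the others. In iWAT labelled KO, library 50 had 34.5 RPKM of Flt1, against at most 15.1 RPKM in the others, and a summed RPKM of the 10 genes of 606. Pituitary library 66, labelled KO, had 20.8 RPKM of Emcn, above 16.6 to 17.8 RPKM. Vwf stood at 1.37 RPKM in pituitary library 50, labelled KO, where the macrophage genes were also highest at 227 CPM (group median 98.7 CPM), and at 1.02 RPKM in WT pituitary library 34.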

How the results depend on the processing

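The tissue calls were stable: 8 of the 10 genes passed in WT and in mice labelled KO under every other scaling, filter and tool, with a replicate block, and without any one mouse number, except that 9 passed in mice labelled KO without mouse 31. All 0 of 10 counts between genotypes stayed at 0, though the set of 21-week mice (4 labelled KO against 2 WT) could call few changes. For libraries with the same number, the correlation of deviations between tissues was -0.059 to 0.095 over 10 numbers, none above 0.1. Among the numbers of their genotype, 3 of 10 libraries correlated best with their own number. Different tissues of one animal need not share deviations, so these values cannot decide whether a number is the same animal in both tissues. The block left the count at 8 in each genotype, and with it the Tek effect difference was -0.052. Tek over Tie1 passed when both genotypes were pooled (log2 0.32, exact permutation within numbers, adjusted p = 0.00781 over the 4 ratios). That pooled test does not show a pass in mice labelled KO alone, where the adjusted p was 0.111 (exact permutation between tissues, adjusted over all 16 comparisons). The 2 adjusted p-values thus come from families of different size. The cause of the changes below was not tested, except that fewer libraries allow fewer permutations.

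Estimates between genotypes, none of which passed, often changed sign, as log2 values. In iWAT, age as a covariate gave 0.059 for Pecam1, 0.12 for Cdh5 and 0.12 for Tie1. In iWAT limma voom gave -0.12 for Kdr, -0.081 for Flt1, -0.050 for Tek, -0.066 for Eng and -0.034 for Vwf. Mice of 21 weeks alone gave -0.12 for Kdr, -0.21 for Flt1, -0.12 for Tek, -0.16 for Emcn, -0.12 for Plvap, -0.30 for Eng and -0.35 for Vwf in iWAT. In pituitary, age gave 0.016 for Kdr, 0.014 for Emcn and 0.044 for Vwf, limma voom -0.042 for Pecam1 and -0.031 for Eng, and mice of 21 weeks 0.029 for Kdr, -0.031 for Flt1, 0.010 for Emcn and -0.16 for Eng. For the difference of the effects, Tek was -0.030 without a filter, -0.060 by limma voom and -0.025 with TMM free of the 20 most abundant genes, and Tie1 was 0.10 with age. Over all genes, the effect difference counted 1 gene by DESeq2 and 1 with age, and pituitary counted 288 by DESeq2, 44 with age and 5 in mice of 21 weeks, against 90.

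Leaving out each mouse number gave these ranges. In the tissue difference in WT, Emcn ran from -0.053 to 0.28. In mice labelled KO the tissue difference ran from 2.87 to 3.22 for Cdh5, 1.30 to 1.84 for Flt1 and 1.42 to 1.90 for Tek. For Tie1 it ran from 1.18 to 1.49 and for Eng from 2.03 to 2.4. Effect differences ran from -0.14 to 0.21 for Cdh5, -0.14 to 0.28 for Kdr, -0.22 to 0.32 for Flt1, -0.32 to 0.16 for Tek, -0.20 to 0.083 for Tie1, -0.13 to 0.34 for Emcn and -0.069 to 0.29 for Eng. Labelled KO over WT in iWAT ran from -0.24 to 0.11 for Cdh5, -0.24 to 0.17 for Kdr, -0.20 to 0.37 for Flt1, -0.25 to 0.21 for Tek, -0.19 to 0.080 for Tie1, -0.12 to 0.31 for Emcn, -0.16 to 0.28 for Eng and -0.21 to 0.29 for Vwf. In pituitary it ran from -0.032 to 0.095 for Pecam1, -0.14 to 0.031 for Kdr, -0.013 to 0.090 for Flt1, -0.023 to 0.087 for Tie1, -0.066 to 0.061 for Emcn, -0.099 to 0.10 for Eng and -0.32 to 0.056 for Vwf, and the count of all genes was 50 to 112. Tissue differences of Flt1 over Kdr were 0.62 to 0.84 in mice labelled KO and 0.67 to 0.83 in WT, of Tek over Tie1 0.28 to 0.38 in WT, of Plvap over Pecam1 -3.29 to -3.25 in mice labelled KO and -3.58 to -3.45 in WT, and of Vwf over Pecam1 0.996 to 1.31 in mice labelled KO and 0.75 to 0.97 in WT. Genotype differences of Tek over Tie1 were -0.048 to 0.15 in iWAT and -0.019 to 0.070 in pituitary, and of Vwf over Pecam1 -0.014 to 0.28 in iWAT and -0.29 to 0.041 in pituitary.

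Among the 10 genes, counting error weighed most on pituitary Vwf, at 79 to 168 counts.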
